A study of Mus musculus with 6 samples.

Results

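The 10 genes described here encode core parts of the cell's nutrient-sensing machinery: Mtor, Rptor, Rheb, Tsc1, Tsc2, Ddit4, Sesn2, Depdc5, Prkaa1 and Stk11. They were chosen by name, not by their values, and are 10 of the 55487 genes in the count table. All 10 were found once each by symbol. The cells were megakaryocyte-erythroid progenitors, the precursors of red cells and platelets. They were sorted from the bone marrow of wild type mice of the C57BL/6 strain at 8 weeks of age. The control group held 3 libraries and the fasted group, from mice fasted for 6 h, also held 3. The labels do not say whether a library is 1 mouse or a pool, so p-values measure the spread between these libraries, which may be technical in part. The study asked what fasting does to the making of red cells at the RNA level.

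The mTORC1 complex is a kinase that drives growth when nutrients are plentiful. It is switched on at the lysosome by the GTPase Rheb, which the TSC complex keeps inactive, and it is brought there only when amino acids are sensed. AMPK is a kinase that responds to low energy, is activated by LKB1, and restrains mTORC1 through TSC2 and raptor. Much of this control acts on protein phosphorylation and location, which RNA counts do not measure. In red cell progenitors mTORC1 is known to support growth and haemoglobin production.

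Total counts per library ranged from 12797144 to 30246110, with the 3 control libraries deeper than the 3 fasted ones. Of 10 markers of erythroid and megakaryocyte progenitors, all 10 had counts in every library and 9 lay clearly above background. Background was measured on 1466 odorant and vomeronasal receptor genes, which blood cells do not use. They took 0.264% ± 0.0980 (SD, n = 3) of the counts in control and 0.544% ± 0.0638 (SD, n = 3) in fasted libraries, without overlap (two-sided exact permutation p = 0.1, the smallest that 3 against 3 libraries allow). A gene was called expressed when its mean count over the 6 libraries was at least 5 times the background expected for its exonic length. All 12 granulocyte and monocyte markers also had counts in every library and reached that limit. Their summed CPM (counts scaled to the library's total and TMM factor) ranged from 3219 to 16720 in control and from 1496 to 3932 in fasted libraries. That of the 10 erythroid and megakaryocyte markers ranged from 2347 to 3985 and from 3140 to 4345. The granulocyte and monocyte sum was the larger of these in control libraries 2 and 3 and in fasted library 1. The part of the granulocyte and monocyte markers in the results below was not tested. Control library 1 had the lowest summed CPM of 10 immediate early genes, 2579, the other control libraries had 7945 and 7493, and the fasted ones had 9258 to 10373. In bulk samples, fewer cells of a type and less RNA per cell cannot be told apart.

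No nutrient-sensor gene passed the test between fasted and control libraries. All 10 passed the filters on count and background and were tested among 10641 expressed genes with edgeR's quasi-likelihood test. At a Benjamini-Hochberg adjusted p under 0.05, 0 of the 10 were called, against 0 of 10641 genes overall (0% called), and the smallest adjusted p among the 10 was 0.155, for Tsc1. At an unadjusted p under 0.05, 2 of the 10 stood out, Tsc1 and Sesn2, both higher in fasted libraries, where 2175 of all tested genes (20.4%) were past that level, 10.4% higher and 10% lower. DESeq2 called 503 of the 10641 genes (4.73%), 3.07% higher and 1.65% lower, limma-voom called 0, and each called 0 of the 10. The 10 log2 fold changes ran from -0.22 for Rheb to 0.57 for Ddit4, with a median of 0.30 where the median of all tested genes was -0.0073. Of the 10, 8 were above 0 and 2 below, where 49.4% of all tested genes were above 0.

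These signs hold only relative to the other expressed genes. When all 36508 genes that pass the count filter were tested and scaled together, the expressed genes as a whole moved by -0.49 on the log2 scale and the median of the 10 became -0.19, with 1 above 0 and 9 below. That fit called 4.97% of its genes, 420 higher (1.15%) and 1393 lower (3.82%). Of the 10 it called 0, and the smallest adjusted p was 0.0663, for Rheb. With library totals alone or RLE factors on the expressed genes, 8 of the 10 stayed above 0.

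**Figure D1:**
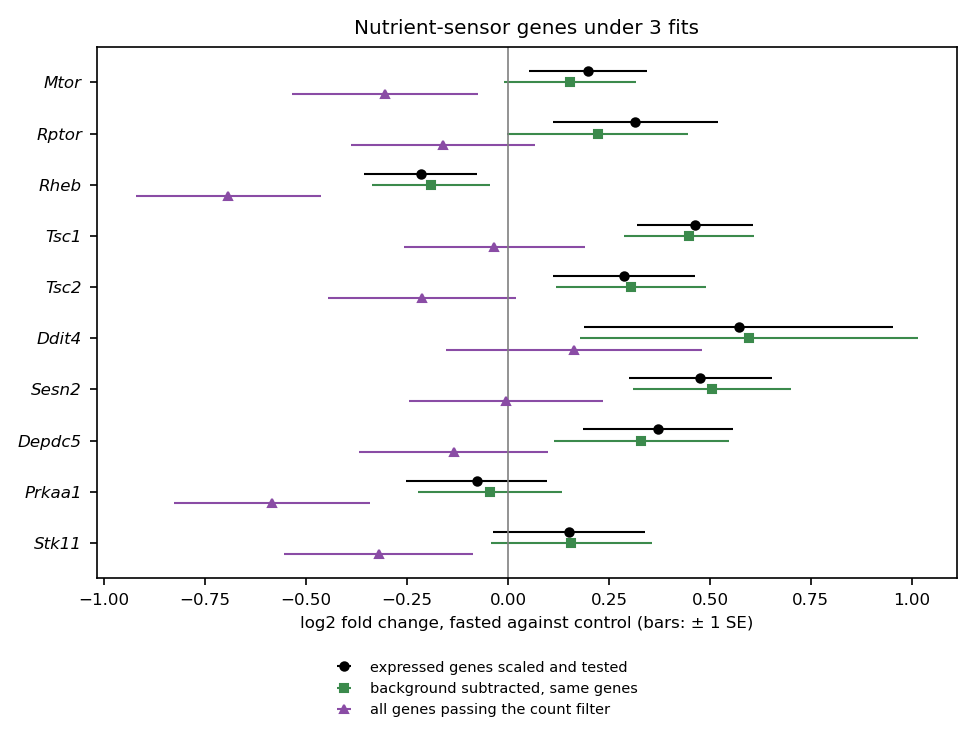
Log2 fold change of fasted against control libraries (x axis, bars ± 1 SE, n = 3 per group) for each of the 10 genes (y axis) under 3 edgeR fits. Expressed genes alone and background subtraction gave values within 0.1 of each other, and the fit of all genes passing the count filter placed each gene about 0.4 to 0.5 lower.

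The promoters of 3 genes are shown: Tsc1 and Sesn2, whose fasted and control values did not overlap, and Ddit4, whose fold change had the widest error. Each is the RefSeq sequence of GRCm38.p6 ahead of the gene's start, limited to bases outside annotated exons, 5′ to 3′ on the gene's strand. Capitals mark CCAAT on either strand.
Tsc1 (chr2:28640983-28641227, plus strand): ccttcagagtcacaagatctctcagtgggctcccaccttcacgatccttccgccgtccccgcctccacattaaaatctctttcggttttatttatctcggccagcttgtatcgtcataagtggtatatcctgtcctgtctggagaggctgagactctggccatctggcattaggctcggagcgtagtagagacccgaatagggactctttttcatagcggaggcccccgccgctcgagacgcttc
Sesn2 (chr4:132510502-132510706, minus strand): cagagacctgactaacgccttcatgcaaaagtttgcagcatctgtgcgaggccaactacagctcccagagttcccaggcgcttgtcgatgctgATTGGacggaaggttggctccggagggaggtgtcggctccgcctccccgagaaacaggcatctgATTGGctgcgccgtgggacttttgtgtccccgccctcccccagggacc
Ddit4 (chr10:59951835-59952020, minus strand): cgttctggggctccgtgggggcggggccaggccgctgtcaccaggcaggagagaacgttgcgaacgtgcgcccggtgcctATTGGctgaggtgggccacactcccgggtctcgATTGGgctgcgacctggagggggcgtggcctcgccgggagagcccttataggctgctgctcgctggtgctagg
A set of 4 letter patterns was searched on both strands of the 250 bases ahead of the start, in all 32851 promoters. CCAAT was present for 4 of the 10 genes (Mtor, Ddit4, Sesn2 and Stk11) and in 33.8% of all promoters. The E-box CACGTG was present for Rheb only, and in 6.02% of all promoters. The amino acid response pattern TGATGNAAN and the FOXO pattern GTAAACA matched none of the 10, and 3.44% and 3.17% of all promoters. A match is a stretch of letters and says nothing here about binding.

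Per unit of exon length, Rheb and Prkaa1 were the most abundant of the 10 in control libraries and Rptor the least. Levels are given as RPKM, which is CPM per kilobase of exon. Rheb had 18.2 RPKM ± 2.34 and Prkaa1 16.8 RPKM ± 2.45 (SD, n = 3 each), and their ranges overlapped. A gap without overlap followed to Stk11 at 8.09 RPKM ± 1.71 (SD, n = 3). Then came Tsc2 (7.25 RPKM), Sesn2 (6.75 RPKM), Ddit4 (6.51 RPKM) and Mtor (4.82 RPKM), each overlapping the next in its control range. Mtor did not overlap Tsc1, which followed at 4.02 RPKM, and Depdc5 (3.73 RPKM) and Rptor (3.18 RPKM) again overlapped their neighbours. The kinase Mtor and its partner Rptor were thus measured at lower RNA levels per length than the small GTPase that activates them.

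Mtor, the catalytic kinase of the complex, lay on chromosome 4 (148448611 to 148557683 of GRCm38, plus strand; ENSMUSG00000028991.15). It had 49.8, 53.1 and 43.3 CPM in control libraries 1, 2 and 3, and 54.5, 52.8 and 60.7 CPM in fasted libraries 1, 2 and 3. Fasted library 2 lay just under control library 2, so the groups overlapped by a narrow margin. The log2 fold change was 0.20 (SE 0.15, 95% interval -0.13 to 0.53), with an adjusted p of 0.456 from edgeR.

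Rptor, the gene of raptor, which recruits substrates to mTORC1, lay on chromosome 11 (119602905 to 119899576, plus strand; ENSMUSG00000025583.15). It had 32.5, 48.1 and 47.9 CPM in control and 60.1, 42.9 and 57.0 CPM in fasted libraries. Control library 1 was the lowest and fasted library 2 fell between the control values. Its fitted log2 fold change was 0.32 (SE 0.20), with an adjusted p of 0.396 from edgeR, and 0.15 without control library 1. With a mean count 5.19 times the background, Rptor was the nearest of the 10 to the limit of 5, and the estimated background was 12.0% to 18.8% of its control counts and 23.1% to 28.5% of its fasted counts. After subtraction of that background its log2 fold change was 0.22.

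Rheb, the GTPase that switches mTORC1 on, lay on chromosome 5 (24802823 to 24842624, minus strand; ENSMUSG00000028945.9). It had 141, 122 and 158 CPM in control and 116, 134 and 112 CPM in fasted libraries. Control library 2 lay below fasted library 2, and the other two control libraries were the highest of the 6. On the log2 scale the change was -0.22 (SE 0.14, 95% interval -0.53 to 0.099), edgeR adjusted p 0.396, and -0.094 without control library 3. Background made up at most 7.27% of its counts in any library.

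**Figure D2:**
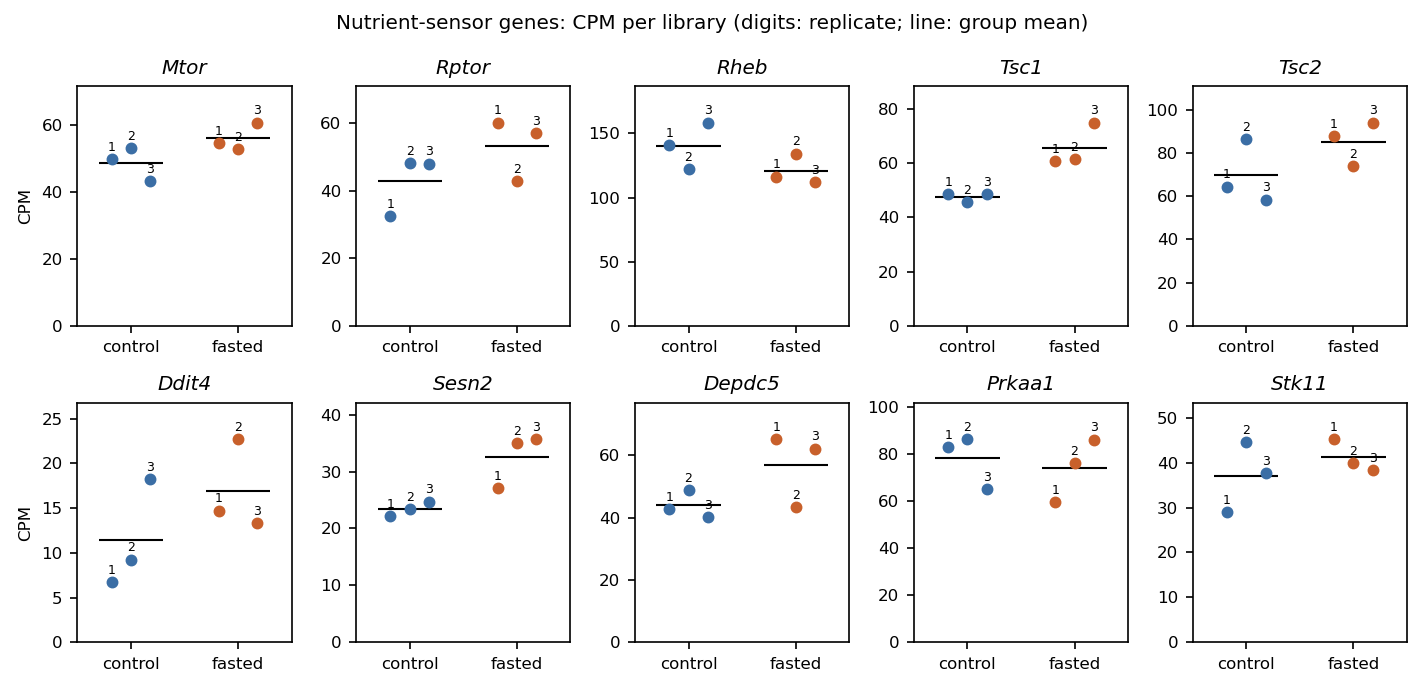
CPM (y axis, from 0) of each of the 10 genes in the 3 control and 3 fasted libraries, where each point is 1 library labelled with its replicate number and each line is a group mean. The fasted points of Tsc1 and Sesn2 lie above all control points, and the other 8 genes overlap between groups.

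Among the inhibitors of mTORC1, Tsc1 gave the smallest p of the 10. Tsc1, the gene of hamartin, the scaffold of the TSC complex, lay on chromosome 2 (28641228 to 28691167, plus strand; ENSMUSG00000026812.16). It had 48.6, 45.7 and 48.6 CPM in control and 60.6, 61.4 and 75.0 CPM in fasted libraries. All fasted values lay above all control values, and the control values were close together at 47.6 CPM ± 1.68 (SD, n = 3). Fasted over control, the fold was 1.38 (95% interval 1.10 to 1.72), or 0.46 on the log2 scale (SE 0.14), with an edgeR quasi-likelihood p of 0.00991, adjusted p 0.155. The log2 fold change stayed between 0.36 and 0.52 with any single library left out.

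Tsc2 encodes tuberin, the part of the complex that acts on Rheb, and lay on chromosome 17 (24595816 to 24632630, minus strand; ENSMUSG00000002496.10). It had 64.4, 86.5 and 58.4 CPM in control and 87.7, 74.0 and 94.1 CPM in fasted libraries. Control library 2 sat among the fasted values. The log2 fold change was 0.29 (SE 0.18), with an adjusted p of 0.372 from edgeR, and 0.47 without control library 2. Of its exonic bases, 693 (7.20%) overlap Pkd1 on the other strand, and whether counting used strand is not given in the sources used here.

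Sesn2, the gene of a leucine-binding stress protein, lay on chromosome 4 (132492032 to 132510501, minus strand; ENSMUSG00000028893.8). It had 22.2, 23.4 and 24.7 CPM in control and 27.1, 35.0 and 35.7 CPM in fasted libraries. All fasted values lay above all control values. Fasted over control, the fold was 1.39 (95% interval 1.05 to 1.84), or 0.48 on the log2 scale (SE 0.18), with an edgeR quasi-likelihood p of 0.0245, adjusted p 0.193. Of all tested genes, 28.1% had groups that did not overlap, 13.2% with fasted values above all control values and 14.9% below, against 2 and 0 of the 10.

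Ddit4 encodes REDD1, a stress-induced protein that restrains mTORC1 through the TSC complex. It lay on chromosome 10 (59949669 to 59951834, minus strand; ENSMUSG00000020108.4). It had 6.76, 9.25 and 18.2 CPM in control and 14.7, 22.7 and 13.3 CPM in fasted libraries. Control library 3 exceeded fasted libraries 1 and 3, so the groups overlapped. The log2 fold change of 0.57 was the highest of the 10 and had the widest error (SE 0.38, 95% interval -0.30 to 1.44), edgeR adjusted p 0.414. Leaving out control library 3 raised it to 1.11, and leaving out either control library 1 or fasted library 2 lowered it to 0.30. Control library 1, the lowest for Ddit4, was also the lowest for the summed immediate early genes, and the part of that in the result was not tested.

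Depdc5, a subunit of the GATOR1 complex that holds mTORC1 off the lysosome when amino acids are scarce, lay on chromosome 5 (32863701 to 32994236, plus strand). Its identifier in the table, ENSMUSG00000037426.18, has another version in M21, with the same exonic length. It had 42.7, 48.9 and 40.1 CPM in control and 65.2, 43.3 and 62.1 CPM in fasted libraries. Fasted library 2 lay within the control range and the other two fasted libraries lay above it. Its fitted log2 fold change was 0.37 (SE 0.19), with an adjusted p of 0.287 from edgeR, and 0.33 with background subtracted.

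On the AMPK side neither gene separated the groups. Prkaa1, the gene of the alpha1 catalytic subunit of AMPK, lay on chromosome 15 (5143861 to 5181899, plus strand; ENSMUSG00000050697.9). It had 82.8, 86.3 and 65.1 CPM in control and 59.6, 76.2 and 86.1 CPM in fasted libraries. The 2 groups covered nearly the same range. On the log2 scale the change was -0.08 (SE 0.17, 95% interval -0.47 to 0.32), edgeR adjusted p 0.822, and its sign changed with upper-quartile factors (0.021) and without fasted library 1 (0.055). With any other single library left out it ran from -0.20 (fasted library 3) to -7.6e-05 (control library 2). Stk11, the gene of the kinase LKB1, lay on chromosome 10 (80115803 to 80130682, plus strand), with identifier ENSMUSG00000003068.17 under another M21 version. It had 28.9, 44.6 and 37.6 CPM in control and 45.2, 39.9 and 38.3 CPM in fasted libraries. Control library 1 stood below the other 5 libraries. The log2 fold change was 0.15 (SE 0.19), with an adjusted p of 0.668 from edgeR, and it moved to 0.00097 when control library 1 was left out, 0.31 for control library 2 and 0.079 for fasted library 1. Of its exonic bases, 232 (5.07%) overlap Cbarp on the other strand.

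Fold changes of expressed genes followed their level over background, and the 10 genes are read against that. The 2703 tested genes at 5 to 8 times the background had a median log2 fold change of 0.35 (quartiles 0.083 and 0.79), and 30.9% of them had fasted values above all control values. Mtor, Rptor, Tsc1 and Depdc5 belong to this range, and their median was 0.34, so Tsc1 lay inside the quartiles of its range. The 2678 genes at 8 to 15 times had a median of 0.071 (quartiles -0.15 and 0.32), and 14.8% were higher without overlap. Tsc2 and Stk11 lay inside these quartiles, and Ddit4 and Sesn2 above the upper one. The 2164 genes at 15 to 30 times had a median of -0.088 (quartiles -0.25 and 0.093), with Rheb and Prkaa1 inside the quartiles, and the 3096 genes above 30 times had a median of -0.19. Subtracting the background left the medians at 0.29, 0.051, -0.066 and -0.13 in the same order. The ranges were chosen after the data were seen, and the part of background in the members' values beyond this subtraction was not tested. The level is a mean of unscaled counts, in which the deeper control libraries weigh more, so it is not independent of the fold change. The part of that in the trend was not tested.

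**Figure D3:**
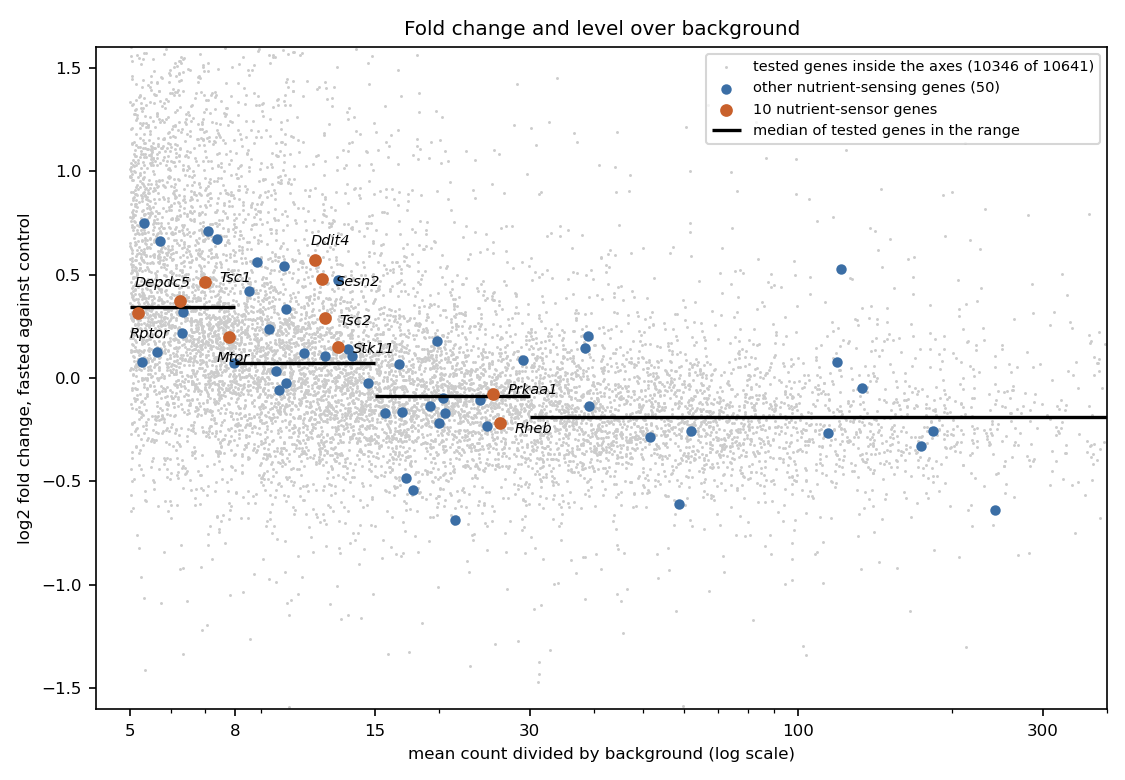
Log2 fold change (y axis) against mean count over background (log x axis) for tested genes, the 10 nutrient-sensor genes (named) and 50 other nutrient-sensing genes, with black lines at the median of all tested genes in 4 ranges of level. The medians go from 0.35 at 5 to 8 times the background to -0.19 above 30 times, and 8 of the 10 genes lie within the quartiles of their range.

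Ratios of partner genes within a library need no scaling between libraries, and 5 pairs were compared, chosen for their biochemical relation with the values already known. In control libraries 1 to 3, the log2 ratio of Tsc1 to Rheb, in counts per kilobase, stood at -2.15, -2.04 and -2.32. It stood at -1.56, -1.74 and -1.20 in fasted libraries 1 to 3. The groups did not overlap, and the mean differed by 0.67 (control -2.17 ± 0.14, fasted -1.50 ± 0.28, SD, n = 3 each; two-sided exact permutation p = 0.1, adjusted over 5 pairs 0.5). With background subtracted from both genes the difference was 0.62. Tsc1 and Rheb lie in different ranges of level over background, and the medians of all tested genes in those ranges (0.35 and -0.088) differ by 0.43 themselves. That of Tsc2 to Rheb differed by 0.51 with overlap (exact permutation p = 0.2), where the medians of their ranges differ by 0.16. Mtor to Rptor differed by -0.12 (exact permutation p = 0.7), Tsc1 to Tsc2 by 0.15 (exact permutation p = 0.7) and Stk11 to Prkaa1 by 0.25 (exact permutation p = 0.5), all with overlapping groups. No pair can pass an adjustment with 3 libraries against 3.

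**Figure D4:**
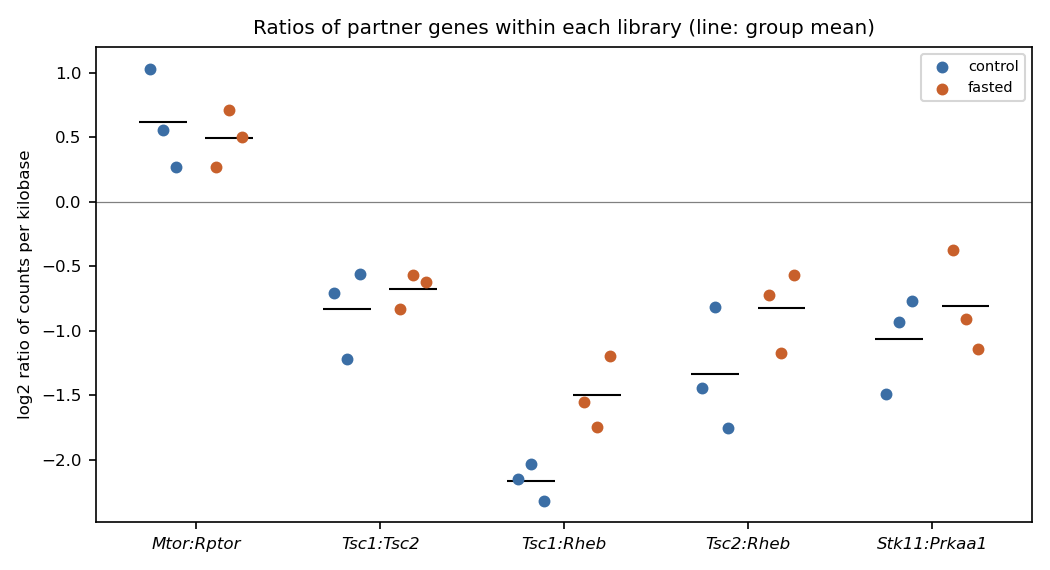
Log2 ratio of counts per kilobase (y axis) for 5 pairs of partner genes, where each point is 1 library and each line a group mean over 3 libraries. The fasted points lie above all control points for Tsc1 to Rheb, and the groups overlap for the other 4 pairs.

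No gene of the wider nutrient-sensing network passed the test either. Of 78 genes in 9 lists, which include the 10, 60 were tested and 18 lay under 5 times the background. At an adjusted p under 0.05, 0 of the 60 were higher and 0 lower (edgeR; smallest adjusted p 0.136), and at an unadjusted p under 0.05, 6 were higher and 6 lower, against 10.4% and 10% of all tested genes. Their median log2 fold change was 0.082. Of the 60, 7 had fasted values above all control values and 8 below, against 13.2% and 14.9% of all tested genes. Genes named below for a large rise or fall were picked among those without overlap, so their lack of overlap follows from the choice. DESeq2 called 3 of the 60, against 4.73% of all tested genes, and limma-voom called 0. The fit of all genes passing the count filter called 6 of 77, of which 1 was higher and 5 lower. It called 1.15% of all its genes higher and 3.82% lower.

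Genes of the lysosomal platform on which mTORC1 is activated showed values on both sides. Lamtor5 and Lamtor2, subunits of the Ragulator scaffold, had 113 CPM ± 4.46 and 150 CPM ± 16.2 in control and 94.3 CPM ± 6.58 and 120 CPM ± 11.5 in fasted libraries (SD, n = 3 each). Their log2 fold changes were -0.26 and -0.33 (edgeR adjusted p 0.265 and 0.220), and neither group overlapped the other. Both genes lie above 30 times the background, where the median was -0.19 (quartiles -0.33 and -0.016). In that range 32.7% of genes were lower without overlap. Lamtor5 lay within these quartiles and Lamtor2 at the lower one. Slc38a9, the gene of a lysosomal arginine sensor, had 49.3, 60.1 and 44.3 CPM in control and 74.3, 79.3 and 90.0 CPM in fasted libraries. The fasted values all exceeded the control ones, with a log2 fold change of 0.66 (SE 0.16), edgeR adjusted p 0.136 and DESeq2 adjusted p 0.0166. At 5.71 times the background, Slc38a9 lay within the quartiles of its range (0.083 and 0.79), where 30.9% of genes were higher without overlap. Of the 10 tested genes of the Rag, Ragulator and folliculin list, 4 were above 0 and 6 below, with a median of -0.15.

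In the GATOR and KICSTOR list, which holds Depdc5, 6 of 10 tested genes were above 0 and 4 below, with a median of 0.060. Nprl2, the GATOR1 partner of Depdc5, had 42.9, 31.2 and 21.8 CPM in control and 19.8, 19.5 and 20.2 CPM in fasted libraries. Its fasted values were lower than all control values, with a log2 fold change of -0.69 (SE 0.25), edgeR adjusted p 0.180, and -0.42 without control library 1. Depdc5 and Nprl2, members of the same complex, thus had values of opposite sign in this fit, and neither passed. They lie in different ranges of level, at 6.27 and 21.5 times the background, where the medians were 0.35 and -0.088. Nprl2 lay below the lower quartile of its range (-0.25), where 15.9% of genes were lower without overlap. In the fit of all genes passing the count filter both were below 0, at -0.13 and -1.22. Sec13, a GATOR2 subunit that also serves in vesicle coats, had -0.27 (SE 0.11), edgeR adjusted p 0.226.

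The lists around the TSC complex and the sensors were small. Tbc1d7, the third TSC subunit, had a log2 fold change of 0.071 (edgeR adjusted p 0.869). Rhebl1, a relative of Rheb, had 14.2, 13.2 and 8.12 CPM in control and 16.3, 19.6 and 20.8 CPM in fasted libraries. Its fasted values lay above all control ones, at 0.67 on the log2 scale (SE 0.26; edgeR adjusted p 0.202), where Rheb itself was at -0.22. At 7.39 times the background, Rhebl1 too lay within the quartiles of the range from 5 to 8 times. Lars, the leucyl-tRNA synthetase gene, had -0.25 (SE 0.13), edgeR adjusted p 0.310, and -0.17 without fasted library 1. Akt1s1, which encodes the mTORC1 inhibitor PRAS40, had -0.11 (SE 0.18), edgeR adjusted p 0.757.

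Among AMPK genes, Prkab1, the beta1 regulatory subunit, was the only one of 3 tested subunits whose groups did not overlap. It had 178, 210 and 243 CPM in control and 283, 346 and 282 CPM in fasted libraries. Its fitted log2 fold change was 0.53 (SE 0.15), with an adjusted p of 0.149 from edgeR. At 121 times the background its range had a median of -0.19, and 1.84% of genes there were higher without overlap. The other 4 subunits lay under 5 times the background and were not tested. Some of these were also higher without overlap, as were 49.9% of all genes passing the count filter under that level. Cab39l, a homologue of the scaffold that LKB1 needs, had 107, 82.1 and 77.6 CPM in control and 62.2, 61.8 and 59.2 CPM in fasted libraries. Its fasted values lay below all control ones, at -0.54 on the log2 scale (SE 0.15), edgeR adjusted p 0.149. At 17.8 times the background, Cab39l lay below the lower quartile of its range (-0.25), where 15.9% of genes were lower without overlap.

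Downstream of mTORC1, Pdcd4, a translation inhibitor degraded after phosphorylation by S6 kinase, had 503, 566 and 663 CPM in control and 342, 441 and 327 CPM in fasted libraries. All fasted values were lower, with a log2 fold change of -0.64 (SE 0.16), edgeR adjusted p 0.136 and DESeq2 adjusted p 0.0290. At 242 times the background, Pdcd4 lay below the lower quartile of its range (-0.33). In that range 32.7% of genes were lower without overlap. Of the 10 tested genes in the list of mTORC1 substrates, 6 were above 0 and 4 below, with a median of 0.072. That list includes Pdcd4, although the kinase named for it here is S6 kinase. Crtc2, a transcriptional coactivator phosphorylated by AMPK-related kinases, had 0.18 (SE 0.16), edgeR adjusted p 0.558, and it moved to 0.079 when control library 1 was left out, 0.27 for control library 3 and 0.062 for fasted library 1.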

How the data were processed

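Raw counts per gene and exonic lengths were deposited by the authors as 1 table. Reads were aligned with HISAT2 2.2.1 to GRCm38 and counted with featureCounts 2.0.1, per the submitters' processing notes. The annotation release, strand setting and read filters are not given in the sources used here. Symbols and positions came from GENCODE M21, which matched 55227 of 55487 identifiers, 54435 with their version. Per the labels' protocols, RNA was taken with oligo(dT) beads and primed with random hexamers.

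Genes were kept by filterByExpr and at 5 or more times the background. TMM factors came from these 10641 genes. The quasi-likelihood model of edgeR 4.0.16 (R 4.3.3), robust and with group as its sole covariate, was fitted to the counts, and a gene was called at a Benjamini-Hochberg value below 0.05. The SE was the log2 fold change over the square root of F. In simulated data with 200 genes changed, the fit called 199 of the 200, and 7 unchanged genes. The simulation gave all genes the same spread and the groups the same background, and its changes were larger than any of the 10. It therefore cannot show whether changes as small as those of the 10 would be called. DESeq2 1.42.0, limma 3.58.1 and scipy 1.17.1 served alternatives and permutation tests. Members, lists, fits and alternatives were chosen with earlier results of these data known. Genes were named by rule: the 10, the most abundant other gene of each list, and the 4 largest rises and 4 largest falls among non-overlapping genes. The values of 1 gene that the rule names are not reported here. The marker lists held erythroid and megakaryocyte, granulocyte and monocyte, mast cell and basophil, lymphocyte and immediate early genes. Summed CPM of mast cell and basophil markers ranged from 106 to 200 in control and from 53.6 to 109 in fasted libraries, and of lymphocyte markers from 61.8 to 99.2 and from 108 to 181. Only 3 of the 10 lymphocyte markers and 4 of the 6 mast cell and basophil markers lay at 5 or more times the background. The part of background in these sums was not tested.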

Additional observations from a re-analysis of the deposited data

How the results depend on the processing

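No alternative called any of the 10 nutrient-sensor genes. With all 36508 genes passing the count filter scaled by TMM, 1813 were called (4.97%, with 76.8% of calls lower), and 6 of 77 listed genes. With those 36508 genes scaled from expressed ones, 4171 were called (6.67% of calls lower), and 8 of 77 listed genes. At 2 times the background, 773 of 20627 genes were called, and 5 of 72 listed ones. DESeq2 called 503 of 10641 genes (4.73%), and 3 of 60 listed ones. At an edgeR adjusted p under 0.10, 2 of 10641 genes were called. Leaving out 1 library gave 0 to 3 calls, 3 without control library 1 and 3 without control library 3. The median of the 10 was -0.19 with TMM from all genes, 0.40 with upper-quartile factors, 0.069 at 2 times the background and 0.22 to 0.42 with 1 library left out. The median of the wider lists was -0.34 with TMM from all genes, 0.15 with all genes scaled from expressed ones, 0.18 with upper-quartile factors, -0.097 at 2 times and 0.030 at 10 times the background, and 0.058 to 0.12 with 1 library left out. The signs turned with TMM from all genes for Mtor (-0.30), Rptor (-0.16), Tsc1 (-0.034), Tsc2 (-0.21), Sesn2 (-0.0059), Depdc5 (-0.13), Stk11 (-0.32), Tbc1d7 (-0.42) and Crtc2 (-0.30). At 2 times the background they turned for Mtor (-0.035), Stk11 (-0.074), Tbc1d7 (-0.15) and Crtc2 (-0.047). Prkaa1 turned to 0.021 with upper-quartile factors, 0.030 at 10 times the background and 0.055 without fasted library 1 (range with 1 library left out -0.20 to 0.055). Akt1s1 turned to 0.0067 at 10 times the background and 0.052 without control library 1 (range -0.18 to 0.052), and Tbc1d7 to -0.0015 with background subtracted, -0.061 without control library 2 and -0.038 without fasted library 3. In these libraries the fit with TMM from all genes moved the expressed genes down together, by -0.49 at their median. The fit at 2 times the background also placed Mtor, Rptor, Rheb and Tsc1 below their main values, at -0.035, 0.087, -0.44 and 0.23. The cause of the turns in the other settings was not tested. The replicate numbers were not taken as pairs. Deviations from the group means had a Pearson r over genes of -0.16, 0.13 and -0.27 for same-numbered libraries. Differently numbered ones had -0.13 to 0.27. Such deviations sum to 0 over the 3 libraries of a group, so these values cannot exclude pairing. With the replicate block 0 genes were called and the median of the 10 was 0.31. At 10 times the background 4 of the 10 were not tested. Ddit4 had the fewest counts of the 10, 191 to 401 per library, and the part of depth in its wide error was not tested.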

Other observations

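Of the 18 nutrient-sensing genes under 5 times the background, 10 had fasted CPM above all control CPM and 0 had them below. The count filter was passed by 17 of the 18. Of all 25867 genes that pass the count filter under that level, 49.9% were higher without overlap and 0.205% lower, so the count is near that of such genes in general. Prr5l, which encodes a partner of the second mTOR complex, had 4.58, 5.08 and 5.11 CPM in control and 12.5, 12.8 and 17.5 CPM in fasted libraries, at 2.56 times the background. It was called in the fit of all genes passing the count filter (log2 fold change 1.04, edgeR adjusted p 0.0430), in the same genes scaled from expressed ones (1.53, edgeR adjusted p 0.0333) and in the fit from 2 times the background (1.30, edgeR adjusted p 0.0441). The estimated background was 31.2% to 65.2% of its control counts and 27.8% to 43.6% of its fasted counts. Acacb, the gene of a mitochondrial acetyl-CoA carboxylase that AMPK phosphorylates, had 8.17, 7.03 and 10.1 CPM in control and 16.6, 17.0 and 27.5 CPM in fasted libraries, at 2.02 times the background (edgeR adjusted p 0.0805, 0.0333 and 0.0475 in the same 3 fits). Wdr59, a GATOR2 subunit, had 21.8, 20.6 and 20.5 CPM in control and 34.4, 30.5 and 44.0 CPM in fasted libraries, at 4.58 times the background (edgeR adjusted p 0.426, 0.0352 and 0.0900 in those fits). These 3 genes were chosen after their values were seen, and the part of background in their values was not tested.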
